A study of Mus musculus with 6 samples.

Results

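The branched-chain amino acid breakdown enzymes described here are 10 mitochondrial proteins, encoded by Bckdha, Bckdhb, Dbt, Bckdk, Ivd, Mccc1, Mccc2, Hibch, Hibadh and Acadsb, among 18193 genes measured in mouse liver. They were chosen by gene symbol, and every probe set (a group of short probes that reads 1 transcript) annotated to exactly 1 of these symbols was taken, which gave 17 of 45037 probe sets. All 10 genes had at least 1 probe set. The livers came from 6 male BALB/cCrSlc mice, an inbred albino strain, aged 17 weeks, and each mouse gave 1 Affymetrix 3' expression array. Both diets were low in protein and derived from the purified rodent diet AIN-93M. For 10 weeks 3 mice ate the control diet 10C with 10% casein, and 3 ate 6C+4CP with 6% casein and 4% collagen peptide from fish, in which less casein and added collagen peptide cannot be told apart. The mice were taken from 12 per diet for their medium food efficiency and went without food for 3 h before sampling.

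Leucine, isoleucine and valine are essential amino acids that share the first steps of their breakdown. An aminotransferase makes branched-chain 2-oxo acids from them, and the mitochondrial branched-chain 2-oxoacid dehydrogenase complex then removes carbon dioxide and forms acyl-CoA in the step that commits them to oxidation. A kinase turns this complex off and a phosphatase turns it on. Liver has little of the aminotransferase and much of the dehydrogenase complex, so it oxidises mainly 2-oxo acids that reach it from other organs. Collagen is poor in branched-chain amino acids compared with casein.

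No enzyme of the set passed the test between the diets. For 4 of the 10 genes every probe set held 1 value shared by all 6 mice, so no difference could be seen. In the other genes the estimated differences ran from -0.28 to 0.21. Some of their intervals were wide, as for Ivd 1418238_at (-0.93 to 0.36), so larger differences were not excluded. Hibch, the valine-branch hydrolase, was 1.11 times higher in 6C+4CP on one probe set without overlap between the diets, and Ivd, the leucine-branch dehydrogenase, had the widest lower difference, which rested largely on 1 mouse. Of the 17 probe sets, 9 held 1 value shared by all 6 mice, and such a value does not show whether a level differed. The other 8 (47.1%), from 6 of the 10 genes, ranged over more than 0.01 across the mice and are called varying, against 17.3% of all probe sets. When probe sets were split by mean value into 4 groups of equal size, the brightest group held 16 of the 17, and 46.9% of it varied. The smallest range among the varying ones was 0.0853, for Bckdk, and the largest among the shared ones was 1e-07, for Hibadh. Values are the authors' deposited ones, read as log2, although no source used here gives the base of the logarithm.

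Of the 8 varying probe sets 2 were higher in 6C+4CP, both of Hibch, and 6 were lower. Limma is a linear model with a spread estimate partly shared across probe sets, in the fit to all of them only slightly. In that fit 0 of the 17 passed a Benjamini-Hochberg adjusted p of 0.05, a threshold that 0.242% of all probe sets passed. Of those 109 calls across the array, 6 were of varying probe sets. At an unadjusted p under 0.05 there was 1 of the 17, against 6.42% of all. In the fit to varying probe sets alone, 0 of 8 passed, as did 0% of the 7791 tested, and 1 of 8 had an unadjusted p under 0.05, against 14.6%. In the 2-sided exact permutation test, which cannot give a p below 0.1 with 3 mice against 3, 1 of the 8 reached that value. The mice of the diets did not overlap in 1 of the 8, against 19.9% of all varying probe sets (10.8% higher and 9.11% lower). With 1 probe set a gene, the one with the highest mean, the median difference was -0.05 over the 6 varying genes. It was -0.0051 over the 4074 varying genes of the array. Over all 10 genes of the set it was -0.02, a value drawn towards 0 by the 4 genes with shared values.

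**Figure D1:**
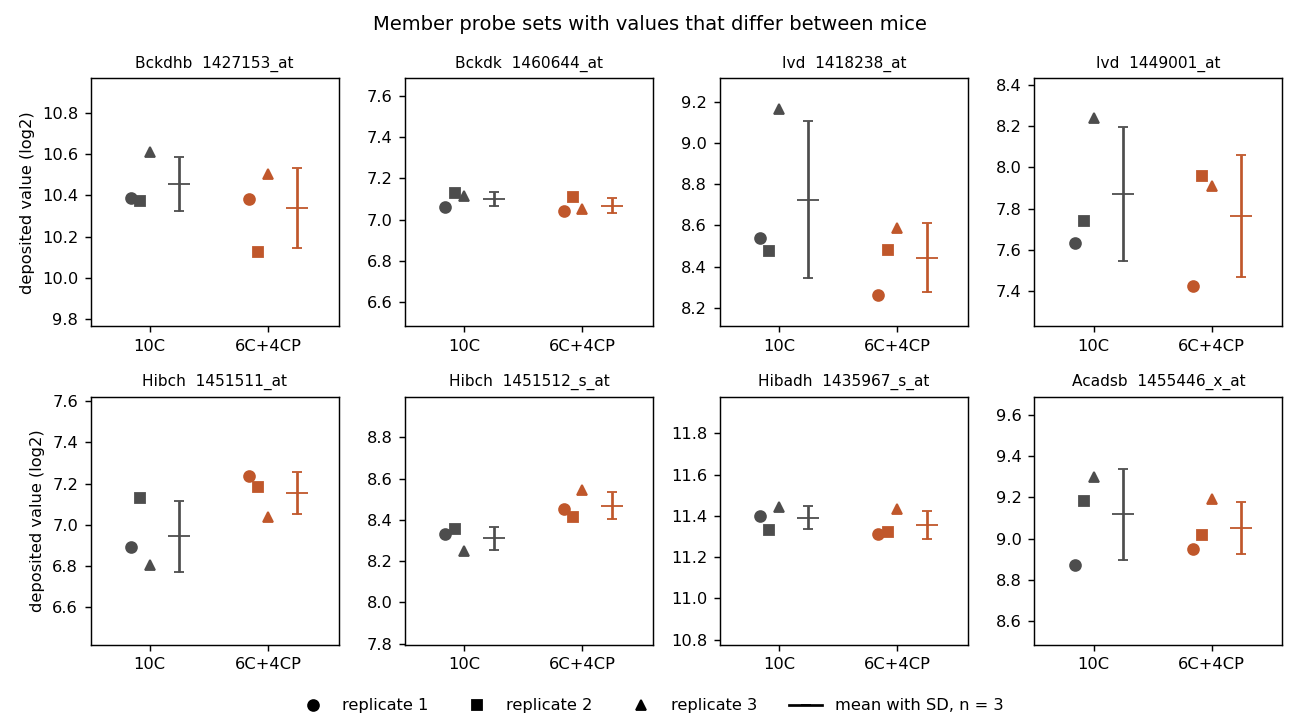
Deposited log2 values of the 8 varying probe sets in each mouse (dark grey 10C, orange 6C+4CP; the marker shape gives the replicate number), with the mean and SD of 3 mice per diet. Every panel spans 1.2 log2 units, so the scatter can be compared: the mice lie within 0.0853 of each other for Bckdk and within 0.90 for Ivd, and only Hibch 1451512_s_at separates the diets.

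The promoters of Hibch and Ivd are shown because these genes had the clearest higher and the widest lower difference of the set. Each line gives the 300 bases from 250 before to 50 after the annotated start, 5′ to 3′, from RefSeq in build GRCm38.p6, for Hibch at chr1:52844788-52845087 and for Ivd at chr2:118861744-118862043, both on the plus strand. Capitals mark CCAAT (the CCAAT box) and GGGCGG (the GC box), searched on both strands, so that ATTGG and CCGCCC are the same motifs read on the other strand; the letters of the motifs may overlap.
Hibch: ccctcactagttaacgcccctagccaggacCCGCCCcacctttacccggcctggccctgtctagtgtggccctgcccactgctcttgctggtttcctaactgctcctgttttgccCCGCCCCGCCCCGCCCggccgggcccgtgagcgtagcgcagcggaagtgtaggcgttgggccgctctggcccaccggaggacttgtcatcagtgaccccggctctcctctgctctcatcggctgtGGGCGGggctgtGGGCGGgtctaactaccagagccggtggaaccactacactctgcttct
Ivd: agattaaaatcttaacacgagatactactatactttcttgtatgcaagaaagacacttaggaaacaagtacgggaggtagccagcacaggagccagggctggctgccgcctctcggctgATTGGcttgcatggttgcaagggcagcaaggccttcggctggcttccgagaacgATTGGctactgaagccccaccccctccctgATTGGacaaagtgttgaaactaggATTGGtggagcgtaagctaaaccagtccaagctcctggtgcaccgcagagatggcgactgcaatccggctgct

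The Hibch window held 6 copies of GGGCGG and 0 of CCAAT, and 66.3% of its bases were G or C. In the Ivd window there were 4 copies of CCAAT and 0 of GGGCGG, with 53.0% G or C, and the copies of CCAAT began 131, 77, 47 and 23 bases before the start. Among 32851 mouse promoter windows of this length, 1.35% held 6 or more copies of GGGCGG and 1.06% held 4 or more of CCAAT. The table gave a window for 9 of the 10 genes, 10 windows in all since Bckdhb had a pair, and all genes but Dbt were found. CCAAT was in 7 of the 10 windows, against 37.4% of all, and GGGCGG in 5, against 35.7%. These matches describe the letters in the windows, and their part in the expression values was not tested.

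The dehydrogenase complex consists of E1, made of an alpha subunit from Bckdha and a beta subunit from Bckdhb, of the E2 core from Dbt, which carries the acyl group on lipoate, and of the E3 subunit from Dld, shared with other complexes. Bckdha read 9.35 and Dbt 9.21 in every mouse, values shared by all. Bckdhb (1427153_at) read 10.39, 10.37 and 10.61 in 10C and 10.38, 10.13 and 10.50 in 6C+4CP. Replicate 3 of each diet was its highest, and the diets overlapped. The difference, always 6C+4CP minus 10C in log2 value, was -0.12 (SE 0.14, 95% interval -0.48 to 0.25), with a limma adjusted p of 0.897 over all probe sets.

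Bckdk encodes the kinase that phosphorylates E1 and so turns the complex off. Its probe set 1460644_at read 7.06, 7.13 and 7.11 in 10C and 7.04, 7.11 and 7.05 in 6C+4CP. The mice of both diets were intermingled within this narrow span. The difference was -0.03 (SE 0.029, interval -0.11 to 0.046, limma adjusted p = 0.853), the narrowest interval of the 8. A second probe set, 1443813_x_at, whose suffix marks probes that can match other transcripts, held the shared value 6.39.

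Ppm1k, outside the 10 enzymes, encodes the mitochondrial phosphatase that turns the complex on. Its probe set 1441988_at read 7.73, 7.88 and 8.29 in 10C and 8.61, 8.75 and 8.34 in 6C+4CP, without overlap. Its other probe set, 1452973_at, read 8.59, 8.93 and 10.00 in 10C and 9.56, 9.94 and 9.59 in 6C+4CP. Here 10C replicate 3 was the highest of all mice, so the diets overlapped. The differences were 0.60 (SE 0.21) and 0.52 (SE 0.44), with limma adjusted p of 0.704 and 0.853. Without any 1 mouse they ran from 0.48 to 0.76 and from 0.23 to 0.93, each highest without 10C replicate 3. Dld, the E3 subunit, read 9.34, 9.39 and 9.39 in 10C and 9.28, 9.13 and 9.39 in 6C+4CP, with overlap and a difference of -0.11 (SE 0.077).

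In the leucine branch, Ivd encodes isovaleryl-CoA dehydrogenase, a flavoprotein that follows the complex, and Mccc1 and Mccc2 encode the biotin-carrying and the other subunit of methylcrotonyl-CoA carboxylase. Ivd (1418238_at) read 8.54, 8.47 and 9.16 in 10C and 8.26, 8.48 and 8.59 in 6C+4CP. One mouse, 10C replicate 3, stood above all others, and the rest of the 10C mice lay within the range of the other diet. The difference was -0.28 (SE 0.24, interval -0.93 to 0.36, limma adjusted p = 0.853), and without 10C replicate 3 it was -0.06.

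The other Ivd probe set, 1449001_at, read 7.63, 7.74 and 8.24 in 10C and 7.42, 7.96 and 7.91 in 6C+4CP. Again 10C replicate 3 was the highest mouse, and 6C+4CP replicate 1 the lowest, on both probe sets. The difference was -0.11 (SE 0.25, limma adjusted p = 0.969), and it turned to 0.08 without 10C replicate 3 and to 0.06 without 6C+4CP replicate 1. Mccc1 held shared values of 9.14 and 7.42 on its probe sets, and Mccc2 held 7.22, 8.13 and 8.83. Of Auh, the hydratase after the carboxylase, the probe set with the highest mean read 8.36, 8.46 and 8.56 in 10C and 8.34, 8.42 and 8.41 in 6C+4CP; these overlapped and differed by -0.07 (SE 0.064).

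In the valine branch, Hibch encodes 3-hydroxyisobutyryl-CoA hydrolase, which frees 3-hydroxyisobutyrate from coenzyme A, and Hibadh encodes the dehydrogenase that oxidises it. Hibch (1451512_s_at) read 8.33, 8.36 and 8.25 in 10C and 8.45, 8.41 and 8.54 in 6C+4CP. Every 6C+4CP mouse lay above every 10C mouse, by at least the step from 8.36 to 8.41. The means were 8.31 ± 0.056 (SD, n = 3) and 8.47 ± 0.067, a difference of 0.16 (SE 0.050, interval 0.021 to 0.29). It did not pass (limma adjusted p = 0.699 over all probe sets and 0.27 among varying ones), and its unadjusted limma p was 0.0321.

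The other Hibch probe set, 1451511_at, read 6.89, 7.13 and 6.80 in 10C and 7.24, 7.18 and 7.04 in 6C+4CP. It ran the same way, but 10C replicate 2 lay above 6C+4CP replicate 3. The difference was 0.21 (SE 0.11, interval -0.097 to 0.52, limma adjusted p = 0.764). Without any 1 mouse the differences stayed positive, between 0.12 and 0.19 on the first probe set and between 0.14 and 0.30 on this one. The suffix of 1451512_s_at marks probes that can match more than 1 transcript.

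Hibadh (1435967_s_at, with the same suffix) read 11.40, 11.33 and 11.44 in 10C and 11.31, 11.32 and 11.43 in 6C+4CP. Again replicate 3 was the highest of each diet, and the diets overlapped. The difference was -0.04 (SE 0.050, interval -0.17 to 0.10, limma adjusted p = 0.91), and the other Hibadh probe set held the shared value 10.75. Aldh6a1, which ends the valine branch by making propionyl-CoA, varied by little, with a difference of 0.0022 (SE 0.025).

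In the isoleucine branch, Acadsb encodes the dehydrogenase of 2-methylbutyryl-CoA. Its 1 probe set, 1455446_x_at, also has a suffix for probes that can match other transcripts. It read 8.87, 9.18 and 9.30 in 10C and 8.95, 9.02 and 9.19 in 6C+4CP. The 10C mice held both the lowest and the highest value of the 6. The difference was -0.07 (SE 0.15, interval -0.46 to 0.33, limma adjusted p = 0.959), and it turned to 0.026 without 10C replicate 3. Hsd17b10, which acts later in this branch, read 9.94, 10.10 and 10.48 in 10C and 9.90, 10.04 and 10.23 in 6C+4CP on 1448286_at. It differed by -0.12 (SE 0.19), and between -0.23 and 0.04 without any 1 mouse, the last without 10C replicate 3. Acat1, the thiolase that ends it, had a difference of 0.079 (SE 0.075) on its brightest probe set and 0.23 (SE 0.11) on 1451271_a_at, with overlap on each.

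**Figure D2:**
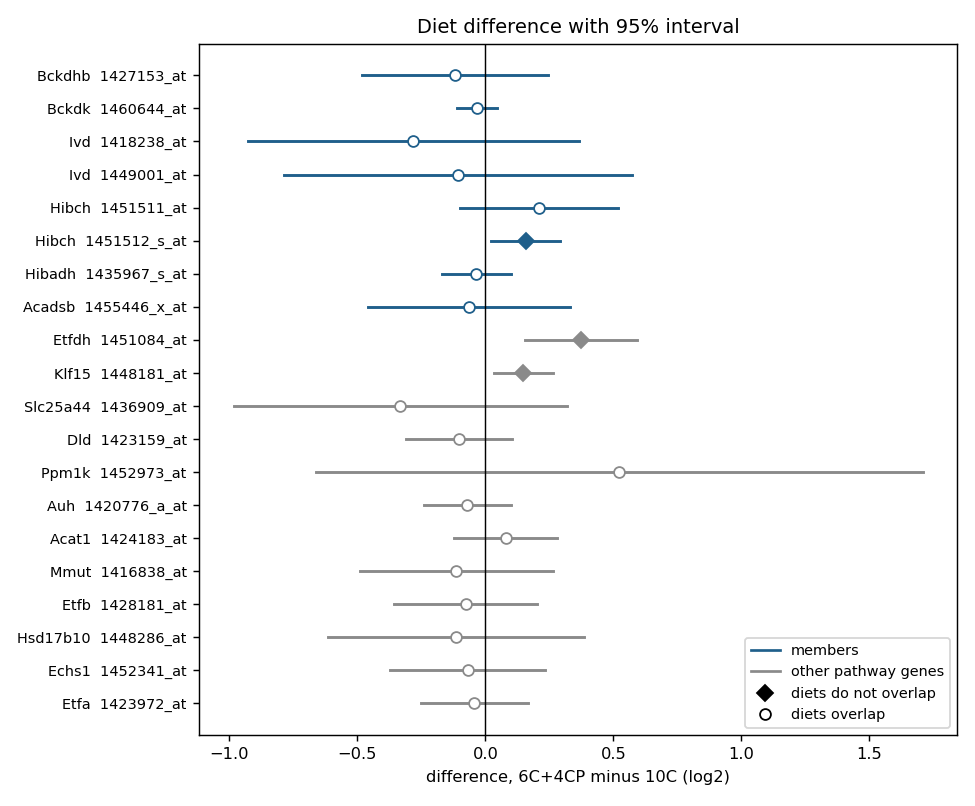
Difference between the diets (6C+4CP minus 10C, log2) with its 95% interval from limma for the 8 varying probe sets of the set (blue) and 12 other genes of the pathway (grey, 1 probe set each), filled diamonds where the diets do not overlap. Hibch at 0.16, Etfdh at 0.37 and Klf15 at 0.15 are the filled ones, and no gene shown passed the adjusted test.

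Of 27 further genes of the pathway, 26 were measured and 13 varied, 5 of them higher and 8 lower in 6C+4CP. Limma called 0 of the 26, against 0.253% of all genes, with 3 at an unadjusted p under 0.05, of which 2 varied. Without overlap were 2 higher and 0 lower, against 11.8% and 9.52% of all varying genes (21.4% together). In all, 22.4% of genes varied. The median difference of the 13 was -0.07, or 0.0061 without 10C replicate 3. Etfdh, the oxidoreductase that takes electrons from Ivd, Acadsb and the fatty acyl-CoA dehydrogenases through the electron transfer flavoprotein, read 10.36, 10.50 and 10.42 in 10C and 10.89, 10.66 and 10.85 in 6C+4CP. Its difference was 0.37 (SE 0.082, limma adjusted p = 0.572 over all and 0.146 among varying probe sets), between 0.33 and 0.45 without any 1 mouse. Etfa and Etfb, the subunits of the flavoprotein itself, overlapped, with differences of -0.04 and -0.08.

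Klf15, a transcription factor known to promote branched-chain amino acid breakdown in muscle, read 9.63, 9.54 and 9.60 in 10C and 9.78, 9.67 and 9.76 in 6C+4CP. The diets did not overlap, and the difference was 0.15 (SE 0.043, limma adjusted p = 0.631). Slc25a44, the carrier that brings branched-chain amino acids into mitochondria, read 7.98, 8.22 and 7.47 in 10C and 7.53, 7.74 and 7.40 in 6C+4CP on 1436909_at. The diets overlapped through 10C replicate 3, with a difference of -0.33 (SE 0.24). Without any 1 mouse it lay between -0.54 and -0.17, the first without 10C replicate 3. The aminotransferases Bcat1 and Bcat2, the propionyl-CoA carboxylase subunits Pcca and Pccb, and all 7 genes of cofactor supply held shared values, while Mmut, the methylmalonyl-CoA mutase, had a difference of -0.11 (SE 0.14).

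In 7 of the 8 varying probe sets the range among the 10C mice was wider than the difference between the diets, the exception being Hibch 1451512_s_at, and this held for 79.3% of all varying probe sets. In 5 of the 8 (Bckdhb, both of Ivd, Hibadh and Acadsb) 10C replicate 3 was the highest of the 6 mice, and both of Hibch had their lowest value in that mouse. Of the 20 varying probe sets of the other pathway genes it was the highest in 9, and of all 7791 varying probe sets in 16.0%. It was the lowest in 25.9% of all, so the 2 of 8 (25.0%) for the lowest value lie near the share of the array. Over all varying probe sets, which are not independent, Pearson's r of this mouse was 0.971, 0.985 and 0.974 with 6C+4CP replicates 1, 2 and 3. Within its own diet this mouse had 0.972 and 0.973. Without it the median difference of the 6 varying genes was -0.02, with 2 higher and 4 lower.

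**Figure D3:**
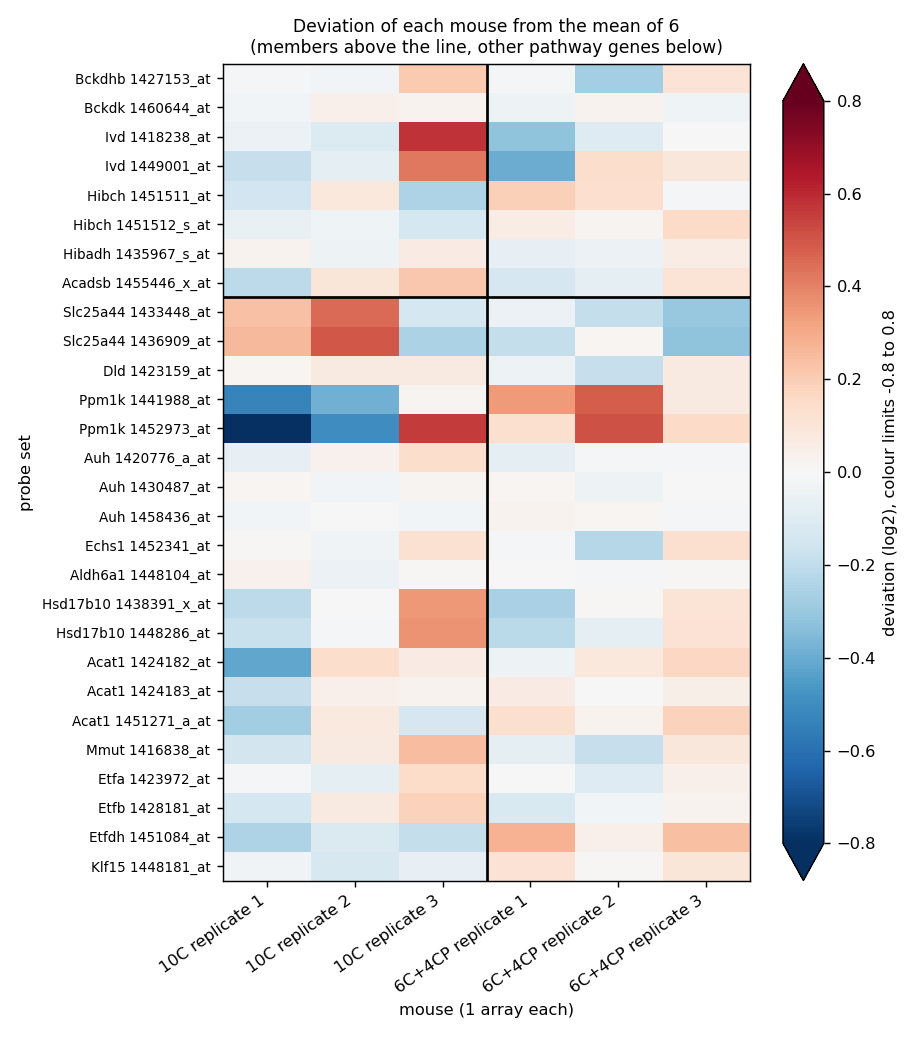
Deviation of each mouse from the mean of the 6 mice, in log2 units (colour). The 8 varying probe sets of the set are above the horizontal line. Below it are the 20 varying probe sets of the other pathway genes. The vertical line parts 10C from 6C+4CP; 10C replicate 3 has the highest value of the 6 mice in 5 of the 8 upper rows and the lowest in both Hibch rows.

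In 10C replicate 3 Pdk4, the kinase that turns off pyruvate dehydrogenase, read 8.83, against 5.51 and 5.35 in the rest of its diet and 5.87, 9.67 and 9.47 in 6C+4CP. The Kupffer cell marker Clec4f also read highest in that mouse, at 9.20, against 8.32 to 8.96 in the others, as did Cd5l, Vsig4 and Csf1r, while Adgre1 did not and Marco held a shared value. The summed value of the 6 markers was 47.87 to 50.53 in 10C and 46.83 to 49.75 in 6C+4CP. Their part in the values of Ivd, Bckdhb and Acadsb was not tested. Hepatocyte markers were bright, with Alb at a shared 14.23, and the summed value of the 5 measured was 68.71 to 68.84 in 10C and 68.36 to 68.40 in 6C+4CP, with Apoa1, Apoh and Cps1 lower and Ttr higher without overlap (differences of -0.27 to 0.03). All 5 skeletal muscle and all 3 adipocyte markers measured, from organs rich in Bcat2, held shared values, as did all 5 of sinusoidal endothelium and all 4 of cholangiocytes. The lymphocyte marker Ighm read 8.66, 9.08 and 9.22 in 10C and 8.32, 8.40 and 8.26 in 6C+4CP, without overlap (difference -0.66, SE 0.17, limma adjusted p = 0.61), and the other 3 of its list held shared values. Of the stellate list 4 of 6 markers varied and overlapped, Colec11 the most, at 0.26 (SE 0.11), and of the erythroid list Alas2, at 0.13 (SE 0.055), also with overlap. The part of these marker differences in the values of the enzymes was not tested. In whole tissue, fewer cells of a type and less RNA per cell cannot be told apart.

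**Figure D4:**
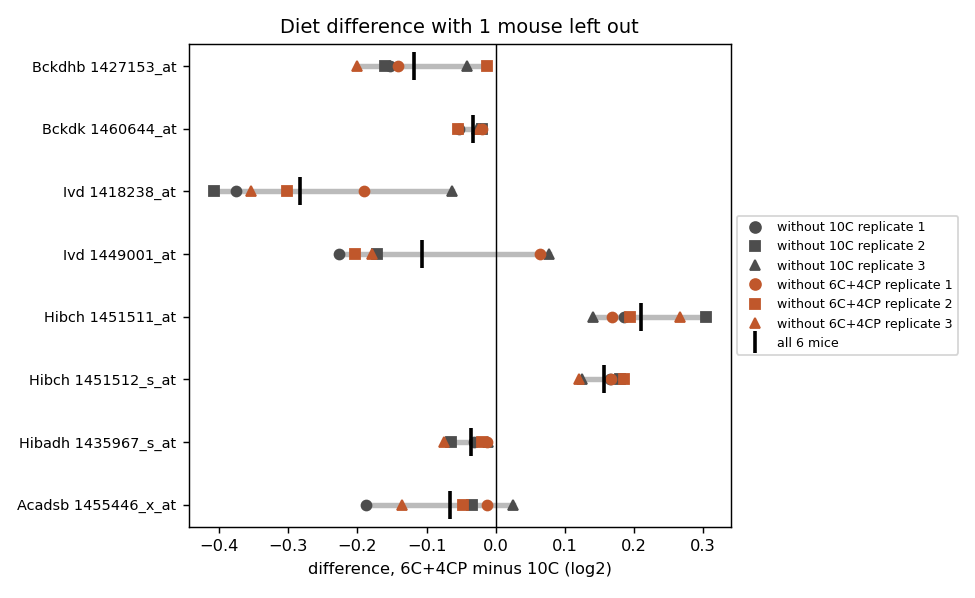
Difference between the diets (log2) for the 8 varying probe sets with all 6 mice (black bar) and without each mouse in turn (markers). The Hibch differences stay above 0, that of Ivd 1418238_at moves from -0.28 to -0.06 without 10C replicate 3, and those of Ivd 1449001_at and Acadsb cross 0.

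The set was placed beside related mitochondrial genes, as a description and with no test of the difference between lists. Of the 12 genes of the pyruvate and 2-oxoglutarate dehydrogenase complexes and their regulators, which are built like the branched-chain complex, 8 varied, 3 higher and 5 lower, with a median of -0.03 over those, or 0.04 without 10C replicate 3. Pdhb, a pyruvate dehydrogenase subunit, read 11.02, 11.52 and 10.50 in 10C and 10.30, 9.98 and 10.33 in 6C+4CP, without overlap (difference -0.81, SE 0.32, limma adjusted p = 0.704). Dlat, its acyltransferase core and the counterpart of Dbt, was 0.16 higher (SE 0.079) without overlap. Pdp2, a phosphatase of that complex and so the counterpart of Ppm1k, differed by 0.57 (SE 0.26), with overlap.

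Of 14 genes of mitochondrial fatty acid oxidation all varied and had higher means in 6C+4CP, with a median of 0.27, and 5 did not overlap, beside 11.8% of all varying genes. Without 10C replicate 3 the median was 0.40 and 10 did not overlap, beside 18.2% of all varying genes. The acyl-CoA dehydrogenases of that list are relatives of Ivd and Acadsb, and the genes with the smallest p were Hadhb at 0.59 (SE 0.092), Cpt1a at 0.58 (SE 0.14), Slc25a20 at 0.97 (SE 0.24) and Eci2 at 0.66 (SE 0.21). Of 26 measured genes for the breakdown of other amino acids 20 varied, 3 higher and 17 lower, with a median of -0.16, and 7 lower ones did not overlap, beside 9.52% of all varying genes. Without 10C replicate 3 these were 7 higher and 13 lower, with a median of -0.10 and 8 lower ones without overlap, beside 21.9%. Among these were Hal, of histidine breakdown, at -0.26 (SE 0.076), Hgd, of tyrosine breakdown, at -0.40 (SE 0.12), and Kmo and Kynu, of tryptophan breakdown, at -0.32 (SE 0.094) and -0.75 (SE 0.27). Limma called 0 genes of each list, with 0 of 12, 5 of 14 and 5 of 26 at an unadjusted p under 0.05, beside 7.18% of all genes. By direction, 1 of the 6 varying branched-chain enzymes was higher and 5 were lower. Of the 4074 varying genes of the array 1954 were higher and 2120 lower.

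**Figure D5:**
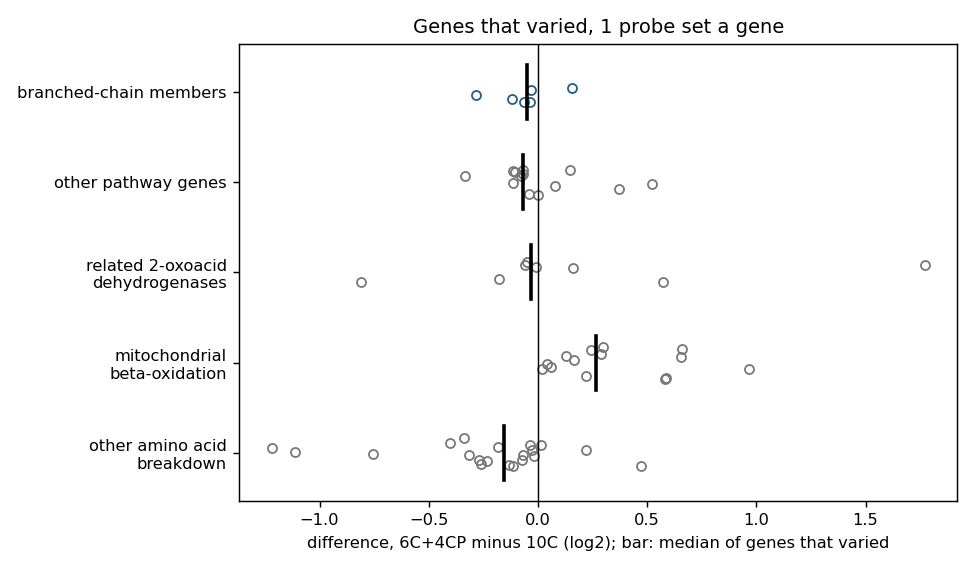
Difference between the diets (log2) of each gene that varied, 1 probe set a gene, in the branched-chain set and 4 comparison lists, with the median as a bar. The branched-chain set lies between -0.28 and 0.16 with a median of -0.05, beside medians of 0.27 for fatty acid oxidation and -0.16 for other amino acids.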

How the data were processed

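Total RNA from liver kept in RNAlater was column-purified and 100 ng was labelled with a 3' IVT kit, per the labels' protocols. The log2 values are the authors' deposited ones, 1 column per array; R 2.7.2 was used, per the submitters' processing notes, and no source used here gives the log base or how probes were background-corrected and summarised. Samples were grouped by title. The 64 control probe sets were left out of 45101. The platform annotation gave 1 symbol to 34945 probe sets, several to 932 and none to 9160, and the 17 of the set matched the reference symbols by Entrez identifier. The 6 arrays were fitted by diet alone with limma 3.58.1 under R 4.3.3 (lmFit, then eBayes), with p-values adjusted over all 45037 probe sets. The fit was also run on simulated data, and the outcome is not used here. Its simulated shifts were larger than any difference of the set, so that run does not bear on differences of this size. SEs are those of each probe set alone and intervals use the moderated spread. A gene in a list stands for its probe set with the highest mean. Named were all 10 enzymes and, by smallest p among varying genes, up to 12 other pathway genes and 4 of each related list; Aldh6a1, the shared pathway genes, the second probe sets and the motifs were chosen after values were seen. The members and lists were chosen with earlier results of these data known. The mice are separate animals, and their number limits the precision. Alternatives were a replicate block, leaving out each mouse, quantile normalization, median centring, only varying or brighter probe sets, a trend on intensity with robust moderation, both a block and varying probe sets, another range for varying, an adjusted p of 0.1, and averaging the probe sets of each gene.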

Additional observations from a re-analysis of the deposited data

How the results depend on the processing

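The count of 0 called probe sets, in either direction, held under all alternatives run for it: limma with the replicate block, without each mouse, with quantile normalization, median centring, only varying or only brighter probe sets, a trend with robust estimation, the block on varying probe sets, and an adjusted p of 0.1. Only leaving out a mouse, quantile normalization and median centring can move a difference between 3 and 3 mice, and of the 64 such values of the 8 varying probe sets 61 kept their direction and 3 turned: Ivd 1449001_at, which ran from -0.226 to 0.0774 over the fits without 1 mouse, was above 0 without 10C replicate 3 (0.0774) or 6C+4CP replicate 1 (0.0638), and Acadsb ran from -0.188 to 0.0256, the last without 10C replicate 3. The fits leaving out 1 mouse gave 1 to 2 higher and 0 to 1 lower probe sets without overlap. There were 2 higher without 10C replicate 2 or 6C+4CP replicate 3. There was 1 lower without 10C replicate 1, 6C+4CP replicate 2 or 6C+4CP replicate 3. With fewer mice, absence of overlap is more frequent. Without 10C replicate 3 it held for 18.2% (higher) and 21.9% (lower) of all varying genes, against 11.8% and 9.52% with all mice. Array shares without each of the other mice were not computed, so these counts are not a result about the enzymes. The median difference over the 10 genes was -0.0166, between -0.0156 and -5.5e-09 without any 1 mouse, the last without 10C replicate 3, -0.0506 on varying probe sets with or without the block (6 genes), and -0.00829 when the probe sets of each gene were averaged. Genes with shared values enter the medians over 10 genes as differences of about 0, which draws these medians towards 0. Deviations of same-numbered mice correlated at 0.477, -0.089 and 0.085, and those of differently numbered mice between -0.573 and 0.401. These values do not settle whether the replicate numbers pair the mice. The replicate block cannot move the median of -0.0166. Over the whole array the 109 calls became 3 with the replicate block, 1 with quantile normalization and 285 to 398 without 1 mouse. They became 0 with median centring, varying or brighter probe sets, the trend, or the block on varying probe sets. The share of calls beside the set thus depends on these settings. Where the whole array had 0 calls, the count of 0 in the set was fixed in advance. No alternative to the deposited values was run, and 9 of the 17 probe sets carry no difference between mice in them.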
